A study of Mus musculus with 12 samples.

Results

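The comparison described here set the cortex of Egfr knockout embryos against that of controls in the 6 libraries with little Nr2f1, out of 12 in the series. Egfr encodes the epidermal growth factor receptor. All embryos were mice at E17.5. Knockout embryos (NcreEGFRFF, written Nestin-EgfrF/F in the protocol) combined Nestin-Cre with floxed Egfr on both chromosomes. Control embryos (EgfrF/+) had 1 floxed and 1 intact allele, so both genotypes carried at least 1 floxed allele, and whether controls also carried Cre is not given in the sources used here. The Nestin promoter drives Cre in neural progenitors and hence in the neurons and glia made from them, while blood vessels, microglia and meninges come largely from other lineages. Cortex and hippocampal formation were freed from the ventral forebrain, halved into a rostral and a caudal piece, and messenger RNA was sequenced from each. Libraries are named here by genotype and accession order, as knockout 1 to 6 and control 1 to 6.

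Nr2f1 (also called COUP-TFI) is a transcription factor of cortical progenitors and neurons that is known to be graded along the cortex, with little at the rostral pole and much caudally. The EGF receptor is a tyrosine kinase of progenitors, oligodendrocyte precursors and astrocytes. It is activated by ligands such as TGF-alpha and HB-EGF, signals through the MAPK cascade to immediate early genes such as Egr1, and is limited by feedback genes of the Dusp, Spry and Spred families. In the late embryonic cortex, progenitors that had been making neurons begin to make glia, and EGF receptor signalling is known to promote that step.

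Libraries were chosen by measured values and not by their titled part. File neighbours formed 6 pairs within genotype. By title, none of these pairs joins both pieces of 1 embryo, and each embryo gave 1 of the libraries used here and 1 of the others. Sex-linked transcripts, given below, were alike within each file-neighbour pair but differed within most titled embryos. Which map of libraries to embryos is right is not given in the sources used here. From each pair the library with the lower Nr2f1 level was taken, as CPM (counts scaled to a fixed library sum). This gave knockout 1, 3 and 5 with 97.1, 205 and 71.3 CPM, whose neighbours had 340, 248 and 348 CPM. It gave control 1, 3 and 5 with 78.9, 50.7 and 58.6 CPM, whose neighbours had 348, 343 and 373 CPM. The neighbours differed between 3.50-fold and 6.77-fold in 5 pairs, but only 1.21-fold in the pair of knockout 3 and knockout 4, which is the pair nearest to the line drawn by the rule. Knockout 3 was the only low library above 150 CPM. Its Nr2f2 level, 100 CPM, was also the highest of the 6, the lowest being 7.82 CPM, and Nr2f2 was higher in the Nr2f1-high neighbour in 5 of 6 pairs, this pair being the exception. By title, knockout 1 and 3 and control 1 and 3 are rostral and the others, knockout 5 and control 5, are caudal, so the titles and the Nr2f1 levels do not divide the libraries alike. Nr2f1 was among the genes tested, but its levels are the choice itself, and its own test result is not read here.

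**Figure D1:**
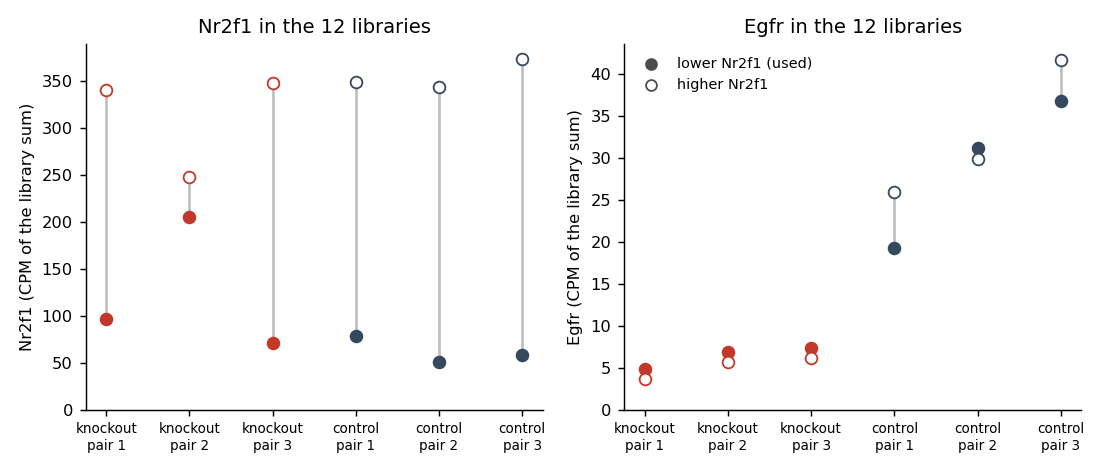
Nr2f1 (left) and Egfr (right) in CPM of the library sum, y axes from 0, for the 6 file-neighbour pairs on the x axis; filled points are the Nr2f1-low libraries used here, open points their Nr2f1-high neighbours, red for knockout and dark blue for control. Nr2f1 in knockout 3 (knockout pair 2, filled) sits at 205 CPM, close to its neighbour at 248 CPM, and Egfr is below 8 CPM in every knockout library and above 19 CPM in every control library.

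The 6 libraries held between 26194099 and 28011066 counts. Mitochondrially encoded genes took 7.25% of the counts in knockout 3 and between 1.96% and 3.17% in the other 5. The first principal component, with 41.3% of the variance of 11546 genes, set apart knockout 1 and control 1, the only 2 of the 6 whose titles carry the number 4858 (the others carry 4692), and the second, with 29.5%, set apart knockout 3. Control 1 held both Xist (230 CPM) and transcripts of Y genes (94.6 CPM in sum), which mark female and male cells. Knockout 1 and control 3 held Y transcripts with Xist at 0.146 CPM or 0, and knockout 3, knockout 5 and control 5 held Xist with Y genes below 0.04 CPM. File neighbours were alike: control 2 held both (Xist 278, Y genes 92.0 CPM), knockout 2 and control 4 Y transcripts, and knockout 4, knockout 6 and control 6 Xist. Titled embryos were not, except knockout 3 with knockout 6. Knockout 4, by title the other piece of knockout 1, held Xist at 324 CPM and Y genes at 0.0658 CPM. Replicates of a genotype differed by 4.81 to 13.1 times the variance that sampling gives, so none was a copy of another. Nothing in the labels says more of the litters behind the replicates.

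Egfr transcripts were lower in each knockout library than in any control library, and among the genes named here this was the largest difference on the lower side. Egfr (chr11:16702203-16868158, GRCm39) measured 4.87, 6.93 and 7.33 CPM in knockout 1, 3 and 5, and 19.2, 31.1 and 36.8 CPM in control 1, 3 and 5. The knockout mean was 6.38 ± 1.32 CPM (SD, n = 3) and the control mean 29.0 ± 8.95 CPM (SD, n = 3), which puts the knockout at 22.0% of control. The log2 fold change was -2.17 (SE 0.28), and Egfr had the second smallest p of all genes tested, but with edgeR its adjusted p was 0.526. With the title number as a block the change was -2.14 and the edgeR adjusted p 0.00422. The exact two-sided permutation test over the 6 libraries gave p = 0.1, the smallest that 3 against 3 allows. A gene-level count takes in exons outside the deleted part, and which exons are floxed is not given in the sources used here.

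Over the whole transcriptome, 1 of 17031 genes tested was called at an adjusted p under 0.05 (edgeR quasi-likelihood test), which is 0.00587% of them. That gene was Gh, which was higher in the knockout. No gene was called lower. At an unadjusted p under 0.05 stood 324 genes, where 851.55 would be counted with uniform p-values. Of these, 177 were higher in the knockout, 1.04% of the genes tested, and 147 were lower, 0.863%. Groups that did not overlap in CPM were found in 395 genes with higher knockout values (2.32%) and in 561 with lower ones (3.29%). DESeq2 called 5 genes on the same libraries, Gh and 2610507I01Rik as higher and Egfr, Olig2 and Egr1 as lower. The values below are therefore mostly those of genes that did not pass the edgeR test, and every such gene had an adjusted p of at least 0.526 in that test.

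**Figure D2:**
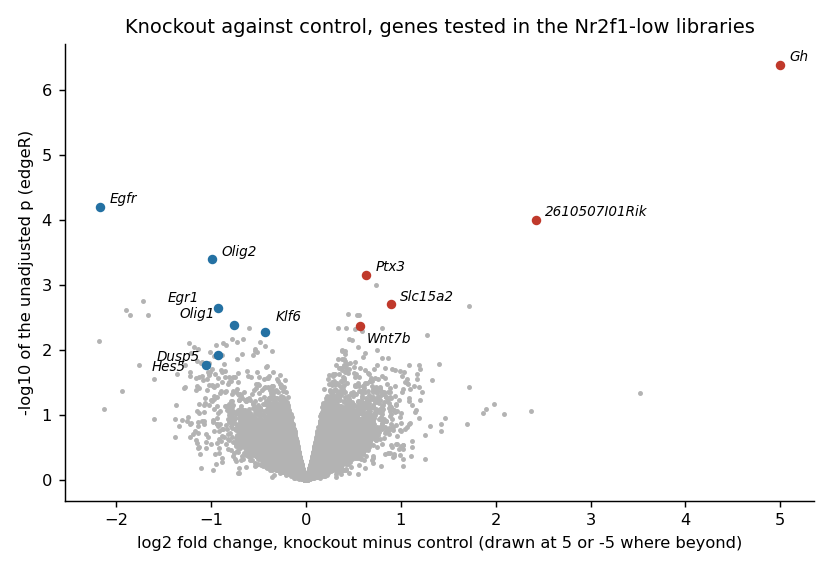
Log2 fold change of knockout over control (x axis, values beyond 5 drawn at 5) against -log10 of the unadjusted edgeR p (y axis), each grey point 1 of the 17031 genes tested in the 6 Nr2f1-low libraries; coloured points are labelled genes, red for higher and blue for lower in the knockout. Gh stands alone at the upper right, drawn at 5 although its fitted value is 10.57, and Egfr has the lowest p among the genes with lower values.

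Gh, the gene of growth hormone, known from the pituitary, was counted in every knockout library and in no control library. It measured 6.06, 7.73 and 7.10 CPM in knockout 1, 3 and 5, from 165.5 to 216.5 counts per library, and had no count in any of the 3 control libraries. The knockout mean was 6.96 ± 0.843 CPM (SD, n = 3). Against a floor of 3 counts over the summed control libraries, 0.0374 CPM, that mean is at least 186-fold higher. The edgeR adjusted p was 0.00689, and the call was lost without knockout 3 (adjusted p = 0.0666) and without knockout 5 (adjusted p = 0.1004). The fitted log2 fold change, 10.57, depends on the prior count. Knockout embryos carried the Nestin-Cre transgene, and whether controls did is not given. For Gh, the transgene and the loss of Egfr therefore cannot be told apart here. Of the growth hormone and IGF axis, 12 of 15 genes passed the filter on low counts, their median log2 fold change was 0.05, and no other member was called.

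Second by p among the genes with higher knockout levels was 2610507I01Rik (chr11:59090662-59093211, GRCm39). It measured 2.16, 2.78 and 2.41 CPM in the knockout and 0.687, 0.261 and 0.443 CPM in the control. The lowest knockout library was well above the highest control library, with a log2 fold change of 2.42 (SE 0.35) and an edgeR adjusted p of 0.563. It was called by DESeq2 (adjusted p = 0.000119) and by edgeR with no filter on low counts (adjusted p = 2.04e-05).

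Other parts of the receptor family showed little. The ErbB list holds receptors, ligands and inhibitors, and 14 of its 19 genes passed the filter. Their median log2 fold change was -0.05, with 5 positive and 9 negative, beside a median of 0.0007 over all genes tested, and Egfr alone had an unadjusted p under 0.05 with a lower level. Tgfa, the gene of the ligand TGF-alpha, measured 20.3, 27.5 and 23.2 CPM in the knockout and 18.2, 19.5 and 19.7 CPM in the control. All knockout libraries were above all controls, by a log2 fold change of 0.33 (SE 0.14) with an unadjusted edgeR p of 0.0435, and by 0.20 without knockout 3. The genes that follow were picked for their role after values had been seen. Erbb2, the receptor's usual partner, stood between 7.85 and 8.81 CPM in the knockout and between 7.47 and 8.4 CPM in the control. Hbegf, a ligand, stood between 6.34 and 8.25 CPM in the knockout and between 7.90 and 9.51 CPM in the control. Errfi1, a feedback inhibitor of the receptor, stood between 12.8 and 15.2 CPM in the knockout and between 13.9 and 15.2 CPM in the control. Each of these 3 genes overlapped between the genotypes.

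Immediate early genes, transcription factors and effectors that growth factor or neuronal signals switch on quickly, were lower in the knockout across most of their list. Of 21 genes tested (22 listed), 20 had a negative log2 fold change, with a median of -0.42, where 49.7% of all genes were negative. None was called by edgeR, 6 had an unadjusted p under 0.05 with lower values (0.863% of all genes), and 5 did not overlap with lower values (3.29% of all genes). The summed level was 824, 1095 and 1125 CPM in knockout 1, 3 and 5 and 1141, 1346 and 1756 CPM in control 1, 3 and 5. The sums do not overlap, but the gap between knockout 5 and control 1 is small. With 1 library left out the median ran from -0.48 (without knockout 3) to -0.25 (without control 5). In the Nr2f1-high libraries, which by title come from the same embryos, the median was -0.40.

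Egr1, a zinc finger transcription factor induced by MAPK signals, measured 164, 177 and 223 CPM in the knockout. The control libraries held 286, 332 and 467 CPM, all of them above every knockout library. The knockout mean was 51.9% of control, with a log2 fold change of -0.93 (SE 0.21) and an edgeR adjusted p of 0.9999. DESeq2 gave an adjusted p of 0.0488. Egr2, a relative of Egr1, measured 1.94, 2.07 and 2.52 CPM in the knockout and 3.32, 3.65 and 5.13 CPM in the control, again without overlap (log2 fold change -0.87, SE 0.25). Klf6, a zinc finger factor of the Krüppel-like family, measured 62.2, 57.8 and 69.4 CPM against 78.9, 86.4 and 94.2 CPM. Its groups were apart by less, with a log2 fold change of -0.43 (SE 0.12). In both genotypes library 5 was the highest for Egr1, Egr2 and Klf6.

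Feedback genes of the MAPK cascade had a smaller median. Of 17 tested (19 listed), 15 were negative, but the median was only -0.11 (-0.18 without knockout 5, -0.06 without control 5). An unadjusted p under 0.05 with lower values was found in 2 (0.863% of all genes). Dusp5, a nuclear phosphatase that inactivates ERK, measured 3.85, 4.78 and 6.83 CPM in the knockout and 7.10, 9.69 and 13.1 CPM in the control. The groups did not overlap, though knockout 5 and control 1 nearly met (log2 fold change -0.93, SE 0.29). Spred3, an inhibitor of the step from Ras to Raf, measured 31.6, 20.3 and 26.4 CPM against 36.1, 35.2 and 35.4 CPM, a log2 fold change of -0.43 (SE 0.15). Among the better known members, picked for their role after values had been seen, Spry2 differed by -0.04 (SE 0.09) and Dusp6 by -0.21 (SE 0.15) on the log2 scale. Of the activity-induced synaptic and secreted genes, 12 of 16 tested were negative, with a median of -0.15. Plk2, a kinase that is induced at active synapses, measured 78.7, 89.9 and 105 CPM against 102, 128 and 165 CPM, so that knockout 5 overlapped control 1. Vgf, a secreted neuropeptide precursor, measured 6.01, 3.64 and 4.62 CPM against 7.06, 6.22 and 8.37 CPM, a log2 fold change of -0.58 (SE 0.22).

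**Figure D3:**
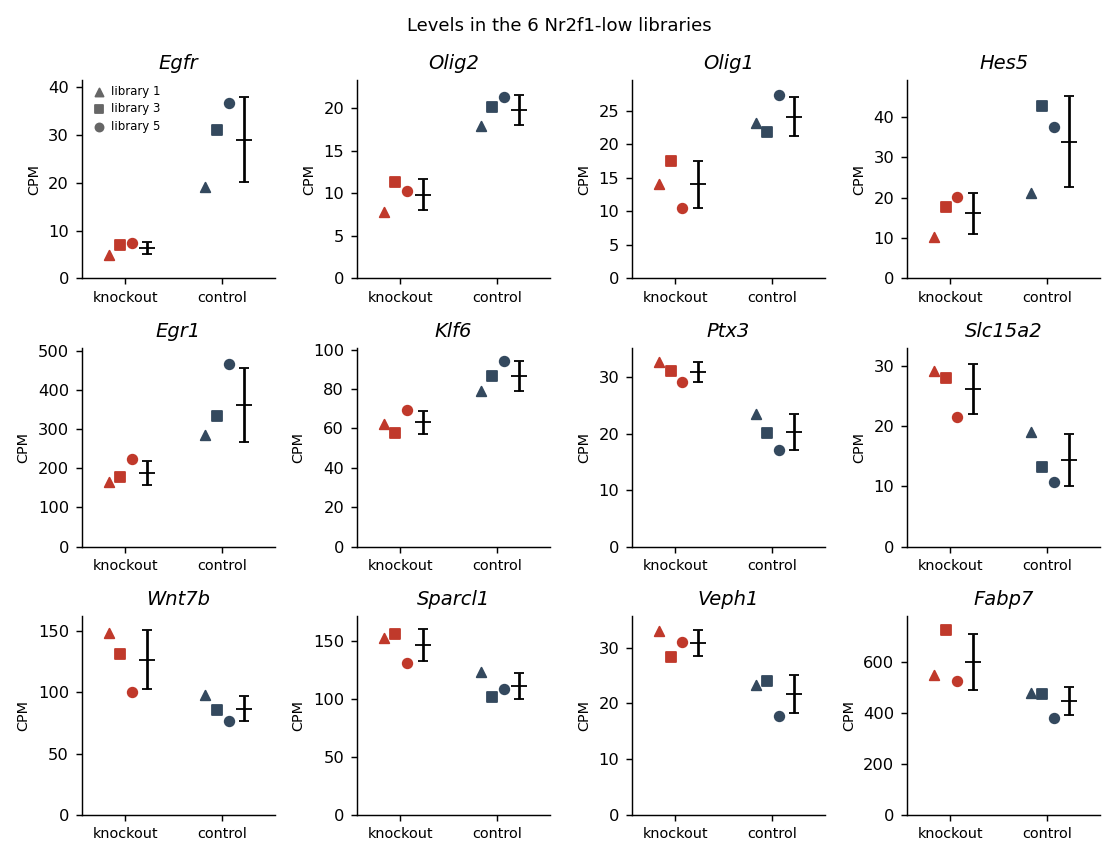
Levels of 12 named genes in CPM (y axes from 0) in the 3 knockout (red) and 3 control (dark blue) Nr2f1-low libraries; triangle, square and circle are libraries 1, 3 and 5 of each genotype, and black bars are mean and SD. Egfr, Olig2, Olig1, Egr1 and Klf6 are lower and Ptx3, Slc15a2, Wnt7b, Sparcl1, Veph1 and Fabp7 higher in all 3 knockout libraries, and Hes5 in knockout 5 (20.2 CPM) comes close to control 1 (21.2 CPM).

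Promoter sequences are shown for Egr2, Dusp5 and Hes5, the last described with the Notch genes. Egr2 and Dusp5 were lower in all 3 knockout libraries, and each was the only member of its list found with the CArG box explained below. Egr2 has 5 promoter entries, and the one shown is that whose match lies nearest the start. The sequences come from RefSeq (GRCm38.p6), a different build from the counts. The 150 bases shown lie on the plus strand within a window of 250 bases before to 50 after the start. Capitals mark the CArG box, the site type of serum response factor, in Egr2 and Dusp5, and TGGGAA, the core of the RBPJ site type, in Hes5. The Egr2 stretch is chr10:67537416-67537565, that of Dusp5 chr19:53528995-53529144 and that of Hes5 chr4:154960773-154960922.
Egr2: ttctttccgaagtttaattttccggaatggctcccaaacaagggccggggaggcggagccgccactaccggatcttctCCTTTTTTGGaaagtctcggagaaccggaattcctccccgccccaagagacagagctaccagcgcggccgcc
Dusp5: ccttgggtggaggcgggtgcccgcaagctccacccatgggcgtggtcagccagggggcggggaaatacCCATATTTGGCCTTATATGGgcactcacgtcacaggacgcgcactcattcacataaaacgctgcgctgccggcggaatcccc
Hes5: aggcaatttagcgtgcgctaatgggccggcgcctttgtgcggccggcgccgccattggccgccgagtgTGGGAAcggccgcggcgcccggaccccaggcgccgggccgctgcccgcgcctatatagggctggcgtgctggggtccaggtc
The Egr2 stretch holds 1 CArG box and the Dusp5 stretch 2 that adjoin. Only the 250 bases before the start were searched. The CArG box reads the same on both strands and was found in 1.47% of 32851 promoter entries. Among genes with a promoter entry, 1 of 17 immediate early genes, 1 of 12 MAPK feedback genes and 1 of 16 Notch pathway genes (Hes5) held it. The CArG match of Hes5 lies within the stretch shown, where it is left in lower case. A gene was counted if any of its entries matched, so shares of genes and of entries are unlike measures. TGGGAA, searched on both strands, was found in 21.6% of promoter entries and in 4 of the 16 Notch pathway genes (Hes5, Hey2, Rbpj and Lfng). A match is a run of letters in the bases searched and says nothing of binding.

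Olig2 and Olig1, neighbouring genes on chromosome 16 for transcription factors that specify oligodendrocyte precursors, were both lower in the knockout. Olig2 measured 7.80, 11.4 and 10.3 CPM in knockout 1, 3 and 5 and 17.8, 20.2 and 21.3 CPM in control 1, 3 and 5. The ranges were well apart, the knockout mean was 49.7% of control, and the log2 fold change was -0.99 (SE 0.17). With edgeR the adjusted p was 0.9999, with the title number block 0.149, with no filter on low counts 0.000385, and with DESeq2 0.00241. Olig1 measured 14, 17.46 and 10.6 CPM against 23.1, 21.9 and 27.4 CPM, a log2 fold change of -0.76 (SE 0.19), again with no overlap. The other precursor markers did not share this: of the 19 on the list, 10 were positive and 9 negative, and the median was 0.02. Pdgfra, the receptor that marks these precursors, picked for its role after values had been seen, measured 31.6, 33.6 and 27.8 CPM in the knockout. It measured 25.2, 28.2 and 35.0 CPM in the control, and the groups overlapped.

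In the Nr2f1-high libraries the precursor list had a median of -0.38, Olig2 a log2 fold change of -1.78 (SE 0.17) and Olig1 one of -1.80 (SE 0.23). The differences between the Nr2f1 classes, 0.77 for Olig2 and 0.99 for Olig1, had edgeR adjusted p-values of 0.384 and 0.177. In that fit the smaller size in the low libraries is not shown. With no filter on low counts this difference was called for Olig1 (edgeR adjusted p = 0.00136) and not for Olig2, so for Olig1 it depends on the filter. In whole tissue, fewer precursor cells and less RNA per cell cannot be told apart.

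Hes5, a Notch target that keeps progenitors undifferentiated, measured 10.3, 17.8 and 20.2 CPM in the knockout and 21.2, 42.9 and 37.6 CPM in the control. Library 1 was the lowest of each genotype, and the ranges meet almost end to end. The knockout mean was 47.5% of control, at 48.6% within title number 4858 and at 47.2% within 4692. The log2 fold change was -1.06 (SE 0.34), with an edgeR adjusted p of 0.9999, or 0.0617 with the title number as a block. Jag1, a Notch ligand, measured 27.2, 24.3 and 26.1 CPM against 19.7, 22.8 and 21.4 CPM, a log2 fold change of 0.30 (SE 0.11). The 21 Notch pathway genes had a median of -0.04, with 9 positive and 12 negative. Of the gliogenic factors, 17 of 18 were tested with a median of -0.05. The 3 with an unadjusted p under 0.05, all with lower values (0.863% of all genes), were Olig1, Olig2 and Hes5.

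Astrocyte markers had higher knockout values throughout the list. All 17 that passed the filter (20 listed) had a positive log2 fold change, with a median of 0.38, where 50.3% of all genes were positive. None was called, 6 had an unadjusted p under 0.05 with higher values (1.04% of all genes), and 5 did not overlap with higher values (2.32%). Summed, the list stood at 1502, 1916 and 1563 CPM in knockout 1, 3 and 5 and at 1260, 1320 and 1346 CPM in control 1, 3 and 5. Knockout 3 was the highest library, and without it the median was 0.22. In the Nr2f1-high libraries the median was -0.01.

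Slc15a2, a peptide transporter of astrocytes, measured 29.2, 28 and 21.5 CPM in the knockout and 19.1, 13.2 and 10.8 CPM in the control. It was 183% of control, with a log2 fold change of 0.90 (SE 0.20). The edgeR adjusted p was 0.9999, or 0.0237 with no filter on low counts. In both genotypes library 1 was highest and library 5 lowest. Sparcl1, a secreted matrix protein of astrocytes that promotes synapses, measured 153, 156 and 131 CPM against 124, 102 and 109 CPM, a log2 fold change of 0.42 (SE 0.11). In the high libraries its change was -0.19 (SE 0.13). The difference of 0.60 had an edgeR adjusted p of 0.203, or 0.00426 with no filter on low counts.

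Radial glia, the progenitors of cortical neurons and glia, had a list that was positive throughout but by little. All 18 markers passed the filter and were positive, and the median was 0.13 (0.24 without control 3, 0.08 without knockout 5). An unadjusted p under 0.05 with higher values was found in 2 (1.04% of all genes). Fabp7, a lipid-binding protein of radial glia, measured 549, 727 and 526 CPM in the knockout and 481, 476 and 383 CPM in the control. The groups did not overlap, and the log2 fold change was 0.46 (SE 0.16), or 0.28 without knockout 3. Veph1 measured 33.0, 28.3 and 31.1 CPM against 23.2, 24 and 17.7 CPM, a log2 fold change of 0.53 (SE 0.13). Intermediate progenitor markers had a median of 0.14 over 14 genes and cell cycle genes one of 0.04 over 25 (-0.18 to 0.15 with 1 library left out), with no member of either list under an unadjusted p of 0.05.

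Other genes with the smallest p were of mixed kinds, and Wnt7b and Tle4 among them are on the deep layer list. Ptx3, a secreted pattern recognition protein, measured 32.6, 31.1 and 29.1 CPM in the knockout and 23.5, 20.2 and 17.1 CPM in the control, 153% of control with a log2 fold change of 0.64 (SE 0.12). Hgf, the gene of hepatocyte growth factor, measured 9.10, 9.05 and 8.51 CPM against 6.11, 5.91 and 6.36 CPM. Both genotypes were tight around their means in Hgf, and its log2 fold change was 0.56 (SE 0.13). Wnt7b, a Wnt ligand that is made by deep layer cortical neurons, measured 148, 131 and 101 CPM against 97.9, 85.8 and 76.8 CPM, so that knockout 5 lay only just above control 1. Its log2 fold change was 0.57 (SE 0.15), against -0.11 (SE 0.10) in the high libraries. The difference of 0.67 had an edgeR adjusted p of 0.119, or 0.00136 with no filter on low counts. Afap1l2, Abhd4 and P4ha3, also among the 10 named by smallest p on the higher side, had log2 fold changes of 0.74, 0.45 and 0.80. On the lower side, Tle4, a corepressor of deep layer neurons, measured 55.3, 47.8 and 58.3 CPM against 69.3, 69.3 and 89.5 CPM. Fam135b, Wipf3 and Rundc3b were lower without overlap by -0.60, -0.67 and -0.73 on the log2 scale.

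**Figure D4:**
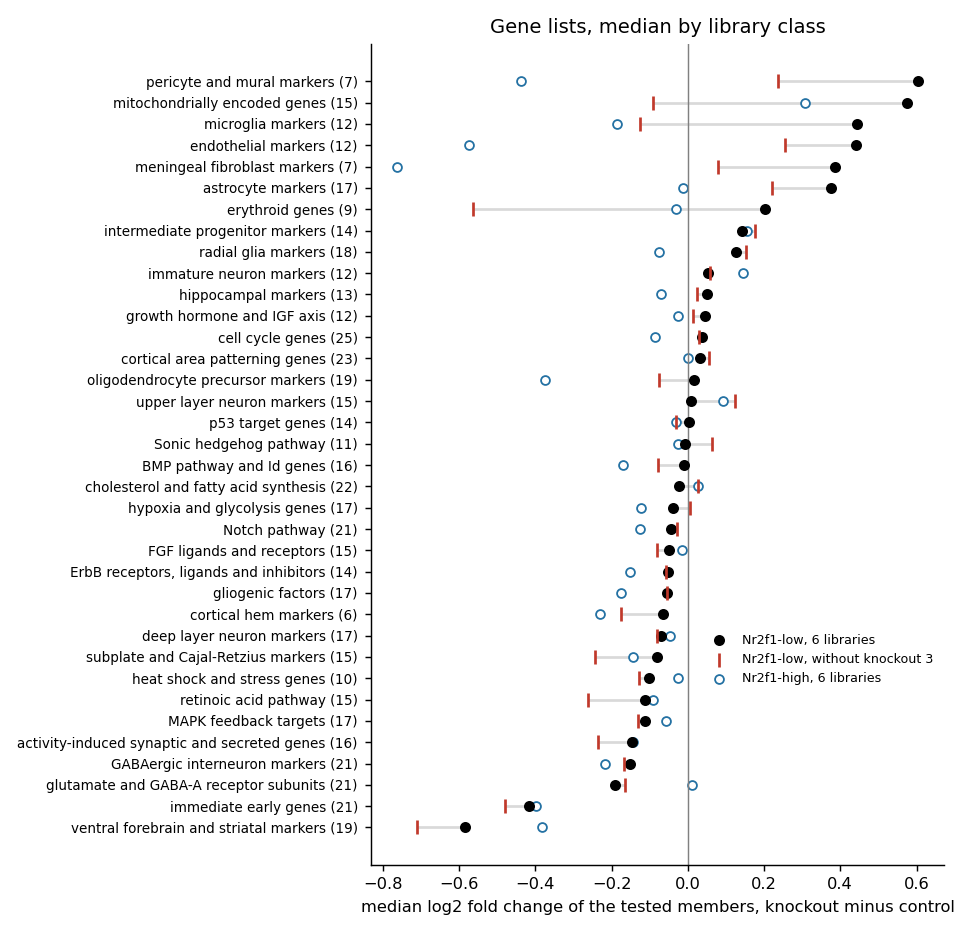
Median log2 fold change, knockout minus control (x axis), of the tested members of each gene list with at least 5 tested (y axis, number tested in parentheses); black points are the 6 Nr2f1-low libraries, red ticks the same without knockout 3, and open blue points the 6 Nr2f1-high libraries. Immediate early genes lie near -0.4 in all 3, while the microglia, erythroid and mitochondrial medians change sign without knockout 3.

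Among neuronal lists, no member was called. Upper layer markers had a median of 0.01 over 15 genes, 7 of them negative, and immature neuron markers one of 0.05 over 12, 4 of them negative. Deep layer markers had a median of -0.07 over 17 genes, 12 of them negative. Their 2 members with the smallest p went opposite ways, Wnt7b higher and Tle4 lower. Glutamate and GABA-A receptor subunits had a median of -0.19 over 21 genes, 16 of them negative, and it ran from -0.40 (without control 3) to -0.10 with 1 library left out. Interneuron markers, of cells that migrate into the cortex from the ventral forebrain, had a median of -0.15 over 21 genes, 17 of them negative, and it ran from -0.40 (without control 1) to 0.12 (without control 5) with 1 library left out. Their summed level ran from 605 to 1152 CPM in the knockout and from 644 to 1361 CPM in the control, with library 1 lowest and library 5 highest in both genotypes. Calb2, the gene of calretinin, measured 23.7, 21.8 and 23.3 CPM against 33.6, 26.3 and 29.7 CPM, a log2 fold change of -0.36 (SE 0.11).

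Markers of the ventral forebrain and striatum, tissue that the dissection was to leave out, were present in every library. Most were lower in the knockout, with summed levels that overlapped between the genotypes. Of 19, all tested, 17 were negative with a median of -0.58 and none had an unadjusted p under 0.05. Without overlap and with lower values stood 1, where 3.29% of all genes did. The summed level was 126, 256 and 395 CPM in knockout 1, 3 and 5 and 254, 411 and 565 CPM in control 1, 3 and 5. The ranges overlap, and library 1 was lowest and library 5 highest in each genotype. Within each title number (library 1 in 1 of them, libraries 3 and 5 in the other), each knockout sum was below each control sum. Isl1, a factor of striatal neurons picked after values had been seen, measured 1.03, 12.9 and 13.8 CPM against 10.3, 22.2 and 33.0 CPM. None of the 19 genes was at 0 in any library. With 1 library left out the median ran from -1.02 (without knockout 5) to -0.22 (without control 5), with -0.71 without knockout 3, and with the title number block it was -0.86. The part of these markers in the lower levels of Olig2, Olig1, Hes5 and the immediate early genes was not tested.

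**Figure D5:**
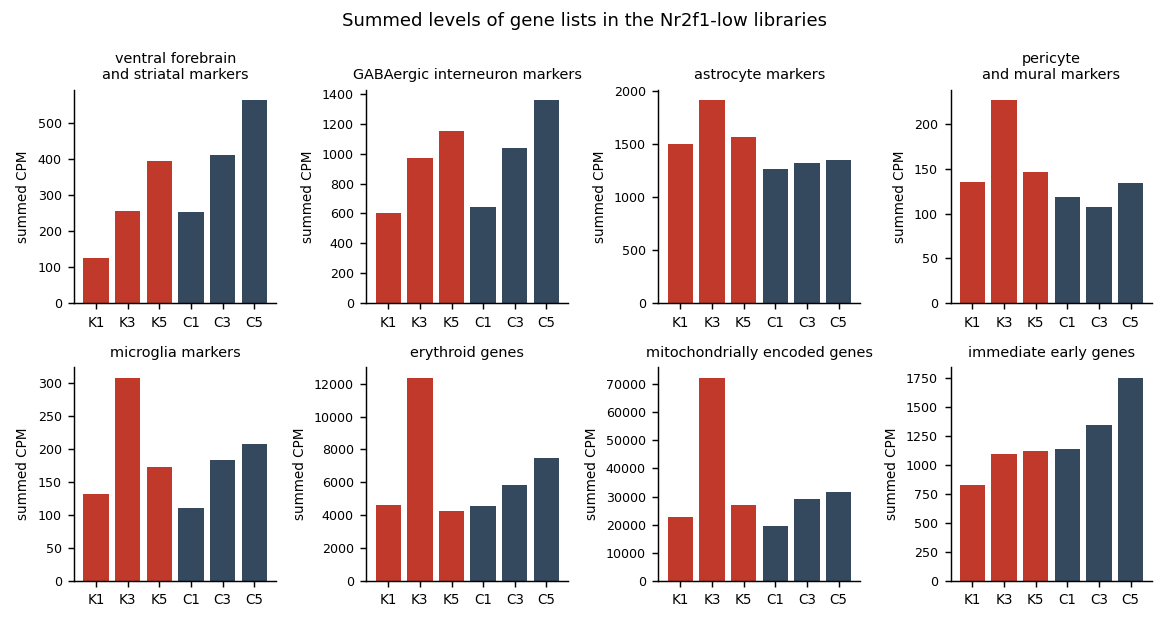
Summed level of 8 gene lists in CPM (bars from 0) in the 6 Nr2f1-low libraries, K1, K3 and K5 being knockout 1, 3 and 5 (red) and C1, C3 and C5 control 1, 3 and 5 (dark blue). Knockout 3 has the highest bar for astrocyte, pericyte, microglia, erythroid and mitochondrial genes, ventral forebrain and striatal bars are lowest in library 1 and highest in library 5 of both genotypes, and each knockout bar of the immediate early genes is below each control bar.

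For microglia, erythroid and mitochondrial genes the median was above 0 with knockout 3 and below 0 without it, as were the medians near 0 of the precursor (0.02 and -0.08) and p53 target (0.0034 and -0.03) lists. Microglia markers, of the brain's resident macrophages, summed to 132, 308 and 173 CPM in knockout 1, 3 and 5 and to 111, 183 and 208 CPM in the controls. All 12 were positive with a median of 0.44, and without knockout 3 the median was -0.13. Erythroid genes, which mark blood, summed to 12378 CPM in knockout 3 and to between 4240 and 7464 CPM in the other 5 libraries, and their median of 0.20 became -0.56 without knockout 3. The 15 mitochondrially encoded genes had a median of 0.57, and -0.09 without knockout 3. Choroid plexus markers were near absent, with 1 of 13 passing the filter and summed levels of 1.52 to 6.34 CPM over the 6 libraries.

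Vessel lists had medians above 0 with and without knockout 3. Pericyte and mural markers, of the contractile cells around vessels, summed to 135, 227 and 147 CPM in knockout 1, 3 and 5 and to 119, 107 and 135 CPM in control 1, 3 and 5. All 7 tested (10 listed) were positive with a median of 0.60, or 0.24 without knockout 3. An unadjusted p under 0.05 with higher values was found in 3 (1.04% of all genes). Pdgfrb, the receptor that recruits pericytes, measured 23.6, 39.0 and 28.6 CPM against 19.4, 19.4 and 22.2 CPM, a log2 fold change of 0.60 (SE 0.19), or 0.37 without knockout 3. Abcc9, a subunit of a potassium channel of pericytes, measured 18.5, 39.0 and 23.8 CPM against 16.1, 12.5 and 20.8 CPM, and its groups overlapped (log2 fold change 0.74, or 0.37 without knockout 3). Endothelial markers had a median of 0.44 over 12 genes, all positive, or 0.26 without knockout 3 and 0.23 without control 3. Slco1c1, a thyroid hormone transporter of the blood-brain barrier, measured 67.2, 58.3 and 57.6 CPM against 58.6, 38.1 and 34.6 CPM, so that control 1 overlapped the knockout. Meningeal fibroblast markers had a median of 0.39 over 7 genes, or 0.08 without knockout 3.

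In the Nr2f1-high libraries these medians had the other sign, -0.44 for pericyte, -0.57 for endothelial and -0.76 for meningeal markers. The test of the difference between the Nr2f1 classes, with the file-neighbour pair as a block, called 1 of 17734 genes (0.00564%). It was Rgs5, a regulator of G protein signalling and a defining marker of pericytes. In the low libraries Rgs5 measured 47.1, 79.8 and 44.2 CPM in the knockout and 42.6, 31.3 and 42.1 CPM in the control, and in the high libraries 29.3, 49.4 and 24.4 CPM against 52.3, 43.0 and 51.6 CPM. Knockout 1, 3 and 5 each exceeded their own high neighbour, and control 1, 3 and 5 were each below theirs. The knockout effect was thus 0.59 (SE 0.25), or 0.25 without knockout 3, in the low and -0.48 (SE 0.24) in the high libraries, a log2 difference of 1.08 with an edgeR adjusted p of 0.0098. The pair block goes against the titled embryo numbers, while sex-linked transcripts were alike within each pair. Without the pair block the edgeR adjusted p was 0.99995 and the difference 1.06. The call was also lost when knockout pair 3 or any of the 3 control pairs was left out, with edgeR adjusted p-values from 0.0938 to 0.193, and the difference then lay between 1.03 and 1.10. The next genes by p were Igf2, Nid1, Vtn and Abcc9, all with a difference between 1.01 and 1.09 in the same direction and edgeR adjusted p-values of 0.075, 0.075, 0.0883 and 0.0883. For Egfr itself the difference was 0.48, with an edgeR adjusted p of 0.783.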

How the data were processed

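Messenger RNA was measured in 12 libraries, 6 of which are used in the main comparison. STAR 2.7.8a and the GRCm39 build are named in the submitters' processing notes, as is featureCounts 2.0.3. Per the file headers, the authors assigned read pairs, in reverse strand mode, to GENCODE release 28 for mouse and divided a pair among all its genes and mapping places. Each deposited value is therefore an estimated count (expected count) of 1 of 55357 genes, without normalization. Near-identical copies share reads under this setting, and their counts are uncertain.

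After rounding, the counts went into edgeR 4.0.16 under R 4.3.3 (TMM scaling, filterByExpr, robust quasi-likelihood fit, Benjamini-Hochberg adjusted p under 0.05) on genotype alone, 3 against 3, with 4 residual degrees of freedom. SEs were obtained by dividing each log2 fold change by the root of its F statistic. The genotype by Nr2f1 class interaction was fitted on all 12 libraries with the file-neighbour pair as a block, which does not use the titles. Alternatives were DESeq2 1.42.0, voom in limma 3.58.1, DESeq2 size factors in edgeR, no filter, X and Y genes left out, the title number as a block, knockout 4 in place of knockout 3, all 12 libraries in 4 groups, and each library left out. P-values set a difference against the spread between these libraries, which may be in part technical. For the interaction, that spread is of the differences within file-neighbour pairs, and by title none of these pairs is 1 embryo.

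The libraries, members and 37 gene lists were chosen with earlier results of these data known. Lists are described by counts and medians with no test of the list. Genes named are Egfr and Nr2f1, up to 15 called genes per direction (filled to 10 by smallest p with a mean of at least 1 CPM and no overlap), up to 4 called genes per list (2 by smallest p where none was called), and 5 genes by smallest p of the interaction. Genes named Gm with a number, pseudogenes and sex-linked genes were left out by that rule, and not every gene it allows is printed. The fits were tested on simulated data. The total per library ran from 25223733 to 30383672 counts over the 12.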

Additional observations from a re-analysis of the deposited data

Results flagged for a closer look

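Rgs5 was the only gene whose knockout effect differed between the Nr2f1-low and the Nr2f1-high libraries by a test of the difference itself, with a log2 difference of 1.08 (edgeR interaction test, adjusted p = 0.0098). The knockout was higher than the control in 3 of 3 low libraries, and 2 of the 3 high knockout libraries were below every high control library. Mitochondrial counts, erythroid genes and microglia markers are high in knockout 3, the knockout library with the highest Rgs5 level, and their part in the difference was not tested. The edgeR adjusted p was 0.00993 without knockout pair 1 and 0.0474 without knockout pair 2, which holds knockout 3. The call was lost without knockout pair 3 (0.110) and without control pair 1, 2 or 3 (0.127, 0.193 and 0.0938), and without the pair block (0.99995). By title no file-neighbour pair joins both pieces of 1 embryo, though sex-linked transcripts were alike within each pair.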

How the results depend on the processing

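The count of called genes was 1 in the comparison reported. It was 4 with no filter on low counts, 3 higher (Gh, 2610507I01Rik and Slc15a2) and 1 lower (Olig2). With DESeq2 it was 5 (2 higher, 3 lower), and with the title number as a block 2 (1 lower). Leaving out 1 library gave 0 to 7 called genes, 0 to 6 higher and 0 to 1 lower. It was 0 without knockout 3 and without knockout 5, with 320 and 760 genes at an unadjusted p under 0.05. It was 7 without control 1, the library with Xist and Y transcripts, and these were Gh, Egfr (adjusted p = 0.0137 with edgeR) and 5 genes named after their values were seen (Rpl30-ps1, Rpl30-ps9, Rpl30-ps10, Gm12191 and Gm7429), of which 3 are Rpl30 pseudogenes by name. Over 88 genes and 14 alternatives, 1210 of 1232 values kept their direction and their side of the threshold. Another 9 moved to the called side, 2 lost the call, both of Gh, and 11 turned direction, none of them called. Of the 88 genes only Gh was called in the comparison reported, so only its values could lose the call. Many of these genes were named for their small p in these data. Nr2f1, used for the choice of libraries, is among the 88. With 1 library left out, the log2 fold changes that turned ran for C1qa from -0.126 to 0.917, Hbb-bt from -0.572 to 0.836, Errfi1 from -0.102 to 0.0125, Spry2 from -0.0681 to 0.000573, Mcm6 from -0.0304 to 0.255, Otx2 from -1.05 to 0.424 and for Pdgfra from -0.0276 to 0.25. Pdgfra was -0.14 with knockout 4 in place of knockout 3. The count of genes that differ between Nr2f1 classes was 1, 0 without the pair block (313 genes at an unadjusted p under 0.05) and 46 with no filter (43 higher, 3 lower). Those 46 include Olig1, Wnt7b, Sparcl1 and Pdgfrb on the higher side and Egr1 on the lower. Leaving out 1 pair gave 0 to 10, 0 to 9 higher and 0 to 1 lower. The causes were not tested. Embryo numbers are not shared between knockout and control, so libraries could not be paired one to one, and the number before them, which is shared, is the title number block above. With 17031 of 55357 genes past the filter on low counts, the genes below it, such as the ErbB ligands Areg, Ereg and Btc, were not tested in the comparison reported. With no filter on low counts 33220 genes were tested.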
